A study of Mus musculus with 79 samples.

Results

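Nuclear RNA of mouse embryonic stem cell clone E3, in which a transient enhancer of the Hoxb locus was deleted, was compared with that of the wild-type clone G4 after 24 h and 48 h of retinoic acid. The libraries were chosen by clone and time alone: the 4 libraries of E3 at 24 h and 48 h and the 4 of G4 at the same times, 8 of the 79 libraries in the series. E3 has the genotype E14;HoxTransEdel and G4 the genotype E14;HoxTransEwt. Both come from E14 cells kept on gelatin with serum and leukemia inhibitory factor, and both received 1 uM retinoic acid. The agent is thus shared, and the labels of the groups differ in clone and genotype. They do not say whether libraries of the clones were prepared together, so a batch cannot be told apart from the clone. Each genotype is a single clone here, so the deletion and any other difference between these clones cannot be told apart. A second deletion clone of the same genotype, H12, was used only to show where E3 stands apart from it. The coordinates of the deletion are not given in the sources used here, and reads over gene spans do not check it.

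Retinoic acid binds the nuclear receptors RAR and RXR and drives embryonic stem cells out of pluripotency, mostly toward neural and endoderm-like fates. The Hox genes, homeobox factors that give cells their position along the body axis, are among its best known targets. In each Hox cluster the genes at the 3' end, such as Hoxb1, respond first, and those toward the 5' end, such as Hoxb9, respond later. Nuclear RNA holds many unspliced transcripts, and the reads here were counted over whole gene spans with introns. In bulk RNA, fewer cells of a type and less RNA per cell cannot be told apart.

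Reads counted to a single transcript per gene numbered 6123314 to 10450047 in the 8 libraries. Each clone has 2 libraries at each time. The labels do not say whether those are separate cultures, so the p-values measure the spread between libraries of 2 single clones. The 2 E3 libraries of 48 h stood apart from each other: their chi-square per gene was 32.9, against 11.1 for E3 at 24 h, 7.98 for G4 at 24 h and 6.02 for G4 at 48 h. Summed fibroblast markers (7 genes, all with reads) were at 2633 CPM (reads scaled to library size) in the first of those libraries and 586 in the second, against 470 to 493 in G4 at 48 h and 128 to 226 in the 4 libraries of 24 h. The gap lay in the fibrillar collagen genes. Col1a1 was at 989 and 179 CPM in these 2 libraries, Col1a2 at 1299 and 272 and Col3a1 at 284 and 78.7. The other listed markers did not share it: Pdgfrb was at 48.9 and 42.4, Dcn at 9.52 and 9.98, Thy1 at 3.28 and 1.88 and Postn at 0.328 and 1.06. Summed embryonic stem cell markers (8 genes) lay at 657 to 923 in E3 and 764 to 912 in G4 at 24 h, and at 286 to 297 and 247 to 287 at 48 h. The blood markers Ptprc and Gata1, the mesoderm markers Mixl1, Mesp1 and Hand1 and the trophoblast marker Elf5 were under 1 CPM in all 8 libraries, and the trophoblast marker Tpbpa had no reads. The part of the difference between the 48 h libraries in the results below was not tested beyond leaving each library out.

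Of 14488 genes tested with time as a block, 51 were higher in E3 (0.352%) and 134 were lower (0.925%) at an adjusted p under 0.05 (edgeR's quasi-likelihood test, Benjamini-Hochberg adjustment over all genes). At least 2-fold differences numbered 34 higher (0.235%) and 36 lower (0.248%). Among the lower genes were Hox genes of all 4 clusters, imprinted genes, neural factors, Y-linked genes and 2 blocks of neighbouring genes. Among the higher genes were Nrk, Gata2 and Krt7. The median log2 fold change of all genes tested was 0.01, with 5th and 95th percentiles of -0.44 and 0.48. The counts rest on few libraries: they fell to 5 higher and 9 lower without the first G4 library of 48 h and to 10 and 40 without the second. Without the first E3 library of 48 h, the one with high collagen, they were 122 and 228, and without the second 44 and 107. With the remaining libraries left out in turn, they were 33 and 96 (first E3 library of 24 h), 21 and 57 (second E3 library of 24 h), 90 and 88 (first G4 library of 24 h) and 19 and 69 (second G4 library of 24 h). All 185 genes kept their direction under every one of the 16 alternatives run, and 13 genes were called under all 16: Plagl1, Hymai, Nnat, Glra1, Uty, Sgce, Ntrk2, Sema5b and Nespas lower, and Nrk, Gata2, Stard8 and Dsg2 higher. Dsg2 and the count of 13 were singled out after their values were seen.

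Most Hoxb genes were lower in E3 over 24 h and 48 h together. Of 9 tested members of the cluster, which lies on chromosome 11, 6 were called lower and 0 higher in that fit, and all 9 fold changes were below 0 with a median of -0.74, against 0.01 for all genes. The promoters of Hoxb4 and Hoxb8 are shown because these genes are called members for which RefSeq's GRCm38.p6 table holds an entry (3 of the 10 listed Hoxb genes have an entry). Each covers 250 bases before and 50 after the start. Capitals mark AGGTCA or its complement on the other strand, the half-site that retinoic acid receptors are known to bind. It occurs in 16.3% of all 300-base promoters of the table.
Hoxb4, chr11:96318017-96318316, plus strand: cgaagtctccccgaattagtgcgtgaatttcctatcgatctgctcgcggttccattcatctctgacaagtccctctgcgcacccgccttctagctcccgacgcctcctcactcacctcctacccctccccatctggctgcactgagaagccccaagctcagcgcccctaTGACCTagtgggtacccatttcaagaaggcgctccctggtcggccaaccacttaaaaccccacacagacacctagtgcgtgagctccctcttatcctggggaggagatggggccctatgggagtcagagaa
Hoxb8, chr11:96281655-96281954, plus strand: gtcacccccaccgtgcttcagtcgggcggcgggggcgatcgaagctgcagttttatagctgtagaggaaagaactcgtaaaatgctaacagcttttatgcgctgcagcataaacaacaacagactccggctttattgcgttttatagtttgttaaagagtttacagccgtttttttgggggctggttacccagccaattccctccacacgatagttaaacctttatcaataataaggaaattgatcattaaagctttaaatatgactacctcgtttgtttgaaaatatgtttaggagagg
The Hoxb4 window holds 1 match and the Hoxb8 window 0.

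Hoxb3, the homeobox gene with the largest span of the cluster (chr11:96323126-96347930), was at 37.6 and 25.9 CPM in the E3 libraries of 24 h and at 75.5 and 87.4 in those of 48 h. In G4 it was at 50.1 and 71.7, then at 151 and 155. Both E3 libraries lay below both G4 libraries at each time, and the log2 fold change was -0.92 ± 0.15 (approximate SE, adjusted p = 0.0121, edgeR). Hoxb5 (chr11:96303512-96306121) was at 4.43 and 4.97 and then 12.1 and 9.40 in E3, against 11.1 and 8.64 and then 20.6 and 21.4 in G4. Its difference was -1.01 ± 0.17 (adjusted p = 0.0135, edgeR), and the E3 libraries of 48 h (9.40 and 12.1) lay beside the G4 libraries of 24 h (8.64 and 11.1). Hoxb6 (chr11:96299171-96301569) was at 4.86 and 4.24 and then 11.7 and 7.75 in E3, and at 9.50 and 8.32 and then 21.0 and 23.9 in G4. This was the widest gap of the cluster, at -1.11 ± 0.18 (adjusted p = 0.0125, edgeR). The antisense transcript Hoxb5os overlaps Hoxb5 and Hoxb6; it was at -0.65 (adjusted p = 0.138, edgeR), and since the use of strand in counting is not stated, its reads may be part of theirs.

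Hoxb2 (chr11:96351632-96354014), which helps to pattern the hindbrain, was lower by -0.66 ± 0.14 (adjusted p = 0.0430, edgeR). Hoxb4 (chr11:96318267-96321638) was at 17.1 and 18.9 and then 25.6 and 31.2 in E3, against 28.5 and 35.03 and then 43.0 and 48.0 in G4. The Hoxb4 difference was -0.74 ± 0.14 (adjusted p = 0.0193, edgeR), and that of Hoxb8 (chr11:96281905-96285325) was -0.91 ± 0.19 (adjusted p = 0.0332, edgeR). The 2 ends of the cluster did not pass the test. Hoxb1 was at 26.6 and 37.0 and then 28.2 and 34.9 in E3 and at 35.9 and 52.95 and then 36.3 and 54.5 in G4, so the clones overlapped at 24 h, with a fold change of -0.50 ± 0.18 (adjusted p = 0.256, edgeR). Hoxb9 stood at -0.46 ± 0.19 (adjusted p = 0.384, edgeR). Hoxb7, the lowest of them at 1.14 to 5.87 CPM, stood at -0.74 ± 0.27 (adjusted p = 0.281, edgeR). At either time alone, 0 Hoxb genes passed in the fit of the 8 libraries. Over both times, the median Hoxb fold change was -0.80 without the first G4 library of 48 h and -0.72 without the second, close to that of all 8 libraries. The Hoxb calls over both times numbered 0 without the first G4 library of 48 h, 1 without the second, and 3 without either E3 library of 24 h or the second G4 library of 24 h; they numbered 6 without the first E3 library of 48 h.

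**Figure D1:**
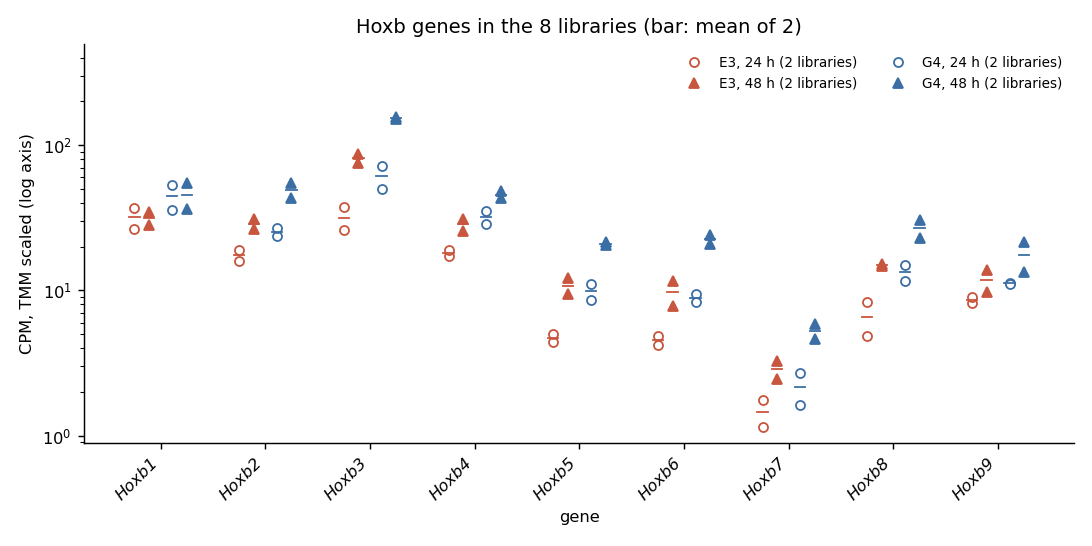
CPM (TMM scaled, log axis) of the 9 tested Hoxb genes in each of the 8 libraries; open circles are 24 h, filled triangles 48 h, red E3, blue G4, and bars the mean of 2 libraries. For Hoxb2, Hoxb3, Hoxb4, Hoxb5, Hoxb6 and Hoxb8 the E3 points lie below the G4 points of the same time, while Hoxb1 overlaps at 24 h.

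Hoxb genes were also compared between 24 h and 48 h within each clone. Hoxb3 rose by 1.36 ± 0.23 on the log2 scale in E3 (adjusted p = 0.00176) and by 1.33 ± 0.22 in G4 (adjusted p = 0.00134, edgeR with a mean per group). Hoxb5 rose by 1.18 ± 0.27 in E3 and 1.08 ± 0.25 in G4, and Hoxb6 by 1.07 ± 0.29 and 1.33 ± 0.26, all past the test. Hoxb1 did not change past the test in either clone, with -0.01 ± 0.26 in E3 and 0.03 ± 0.26 in G4. Over all genes, 13.7% were called between 24 h and 48 h in E3 and 13.5% in G4. No gene passed the test of a different step in the 2 clones, as given below.

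Neighbours of the cluster had no calls. Of 26 tested genes around Hoxb, 0 were called, with a median of 0.01. Skap1, which flanks the cluster, was at -0.12 (adjusted p = 0.946), and Calcoco2 had the highest value, 1.29 (adjusted p = 0.0600, edgeR). The other Hox clusters leaned the same way as Hoxb: all 8 tested Hoxa genes were below 0 (median -0.87) with 2 called, and all 9 tested Hoxc and Hoxd genes were below 0 (median -0.60) with 2 called. Hoxa3 was at 34.0 and 35.8 and then 49.9 and 49.6 in E3, against 60.8 and 64.9 and then 77.4 and 72.6 in G4. All 4 E3 libraries lay below all 4 of G4, and the difference was -0.72 ± 0.12 (adjusted p = 0.0121, edgeR). The deposited span of Hoxa3 contains that of Hoxa5, so its call and that of Hoxa5 (-0.69 ± 0.15, adjusted p = 0.0491, edgeR) share reads. Hoxd3 was at 3.14 and 2.19 and then 32.2 and 40.6 in E3 and at 3.12 and 4.32 and then 80.7 and 75.0 in G4. It was lower by -0.92 ± 0.18 (adjusted p = 0.0267, edgeR), with the gap at 48 h and overlapping libraries at 24 h. Its span overlaps that of Hoxd4 (-0.90, adjusted p = 0.0573). Hoxc4 was lower by -0.87 ± 0.18 (adjusted p = 0.0310, edgeR).

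Genes that make, bind or clear retinoic acid were not called. Of 21 tested members of that pathway, 0 passed, with 16 below 0 and a median of -0.24. The receptor gene Rarb, a direct target of the signal, stood at -0.29 (adjusted p = 0.426), the clearing enzyme Cyp26a1 at -0.10 (adjusted p = 0.921), the reductase Dhrs3 at -0.41 (adjusted p = 0.122) and the binding protein Crabp1 at -0.89 (adjusted p = 0.141, edgeR). The 11 tested Hox cofactor and caudal genes had 0 calls and a median of -0.19.

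**Figure D2:**
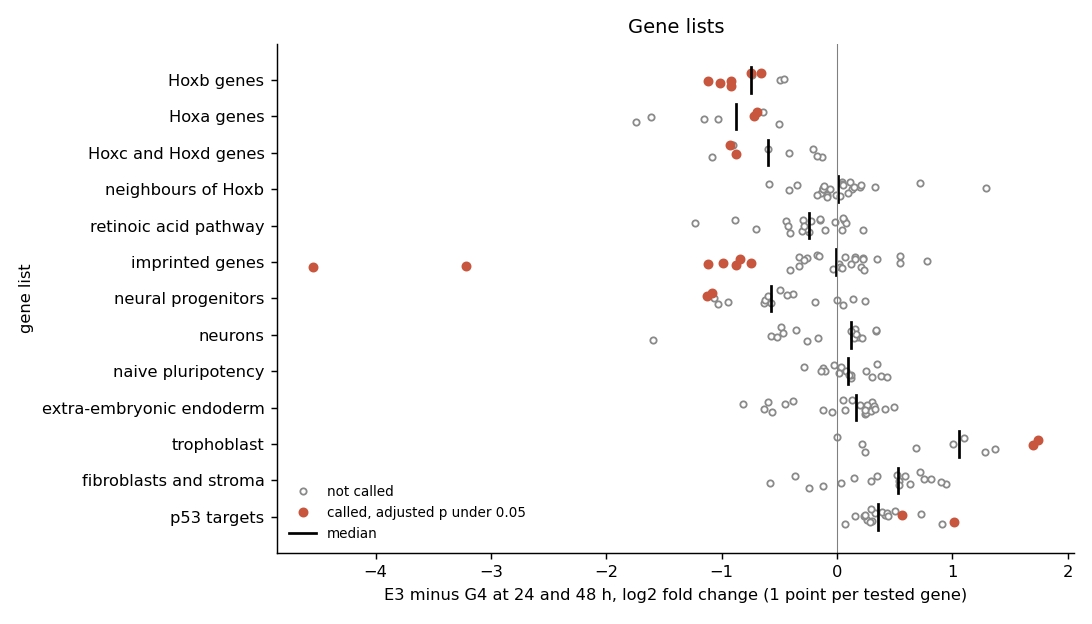
Log2 fold change of E3 against G4 at 24 h and 48 h for each tested gene of 13 lists; filled red points passed an adjusted p of 0.05, open points did not, and black bars are medians. Hoxb, Hoxa and Hoxc and Hoxd members all lie below 0, the neighbours of Hoxb centre on 0, and 9 of 10 trophoblast members lie above 0.

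Imprinted genes, which are expressed from the maternal or the paternal copy only, held the largest differences of the comparison. Of 30 tested members, 7 were called lower and 0 higher, while the list's median was -0.01: these 7 were lower by -0.75 to -4.54 and the other 23 lay between -0.41 and 0.78. The absence of higher calls depended on the fit. With DESeq2, with all 42 clone libraries and with replicate number added to the fit in either form, 7 were lower and 2 were higher. No listed gene lies in the blocks of neighbouring genes described below. Grb10 lies before the block on chromosome 11, in a stretch that also leaned down. Promoters of Plagl1, Nnat and Grb10, the called members with an entry in RefSeq's GRCm38.p6 table, are shown because imprinting is written as methylation of CpG pairs. The CpG pairs are in capitals.
Plagl1, chr10:13090582-13090881, plus strand: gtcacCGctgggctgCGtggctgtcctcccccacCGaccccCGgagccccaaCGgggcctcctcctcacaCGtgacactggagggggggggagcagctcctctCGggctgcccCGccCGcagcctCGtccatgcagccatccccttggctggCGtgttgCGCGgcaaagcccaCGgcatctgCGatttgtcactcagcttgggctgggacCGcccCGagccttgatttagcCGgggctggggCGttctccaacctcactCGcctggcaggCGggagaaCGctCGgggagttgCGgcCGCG
Nnat, chr2:157559828-157560127, plus strand: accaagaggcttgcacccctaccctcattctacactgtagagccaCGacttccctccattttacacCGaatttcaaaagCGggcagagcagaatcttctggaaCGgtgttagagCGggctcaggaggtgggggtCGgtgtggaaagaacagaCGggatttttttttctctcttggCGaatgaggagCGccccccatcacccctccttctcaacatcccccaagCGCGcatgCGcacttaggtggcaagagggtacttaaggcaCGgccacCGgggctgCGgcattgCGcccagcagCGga
Grb10, chr11:12037371-12037670, minus strand: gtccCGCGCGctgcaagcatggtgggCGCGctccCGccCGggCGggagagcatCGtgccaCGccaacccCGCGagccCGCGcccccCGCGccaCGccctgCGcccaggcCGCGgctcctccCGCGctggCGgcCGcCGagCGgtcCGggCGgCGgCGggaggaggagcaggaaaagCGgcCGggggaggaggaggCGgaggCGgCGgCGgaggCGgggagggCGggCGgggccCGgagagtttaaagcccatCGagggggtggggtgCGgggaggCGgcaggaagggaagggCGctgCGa
The Plagl1 window holds 26 CpG pairs, a number reached by 16.9% of all 300-base promoters of the table. The Nnat window holds 17 (31.4%) and the Grb10 window 45 (1.93%). Methylation was not measured in these libraries.

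Plagl1 (chr10:13090788-13131695), a zinc finger factor made from the paternal copy, was at 3.001 and 1.90 CPM in E3 at 24 h and at 7.71 and 11.2 at 48 h. In G4 it was at 51.9 and 29.3, then at 299 and 233. All E3 libraries lay below all G4 libraries, and the log2 fold change of -4.54 ± 0.25 (adjusted p = 5.76e-07, edgeR) was the largest of all genes tested. Within E3, Plagl1 rose from 24 h to 48 h by 1.95 ± 0.38 on the log2 scale (adjusted p = 0.00496, edgeR with a mean per group). The noncoding transcript Hymai, whose span lies within that of Plagl1 on the same strand so that their reads are shared, was at 0.572 and 0.585 and then 1.15 and 1.06 in E3, against 8.01 and 4.16 and then 33.3 and 34.2 in G4 (-4.45 ± 0.32, adjusted p = 1.35e-05, edgeR). Nnat (chr2:157560078-157562525), which encodes neuronatin, a small membrane protein of developing brain, was at 3.72 and 2.92 and then 10.2 and 8.11 in E3. In G4 it was at 40.8 and 33.4 and then 67.9 and 80.9, a difference of -3.21 ± 0.17 (adjusted p = 5.76e-07, edgeR). Nnat lies within an intron of Blcap on the other strand.

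Sgce and Peg10 are neighbours on chromosome 6 that share an imprinted start region. Sgce (chr6:4674350-4747204), a sarcoglycan, was at 65.9 and 52.6 and then 89.8 and 90.5 in E3, against 131 and 118 and then 201 and 203 in G4. That is close to a factor of 2 at each time, -1.12 ± 0.12 (adjusted p = 0.000493, edgeR). Peg10, a retrotransposon-derived gene needed in placenta, was lower by less, -0.84 ± 0.17 (adjusted p = 0.0310, edgeR), and E3 was below G4 at each time, while its 48 h libraries overlapped the 24 h libraries of G4. Nespas, the antisense transcript of the Gnas locus, was at 86.5 and 62.1 and then 94.5 and 86.8 in E3, against 134 and 164 and then 169 and 188 in G4 (-0.99 ± 0.13, adjusted p = 0.00566, edgeR). Gnas itself, whose span overlaps Nespas on the other strand, stood at 0.54 (adjusted p = 0.0799). Grb10, which encodes an inhibitor of insulin receptor signalling, was lower by -0.88 ± 0.15 (adjusted p = 0.0171), and Impact, a regulator of translation, by -0.75 ± 0.12 (adjusted p = 0.0128, edgeR). The growth factor Igf2 was at 72.6 and 89.5 in E3 and 77.1 and 50.7 in G4 at 24 h, and at 652 and 488 against 268 and 232 at 48 h, with a difference over both times of 0.78 ± 0.20 that did not pass (adjusted p = 0.0805, edgeR). H19, its neighbour, stood at 0.55 (adjusted p = 0.363). The imprinted calls numbered 4 without the first G4 library of 48 h and 5 without the second.

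**Figure D3:**
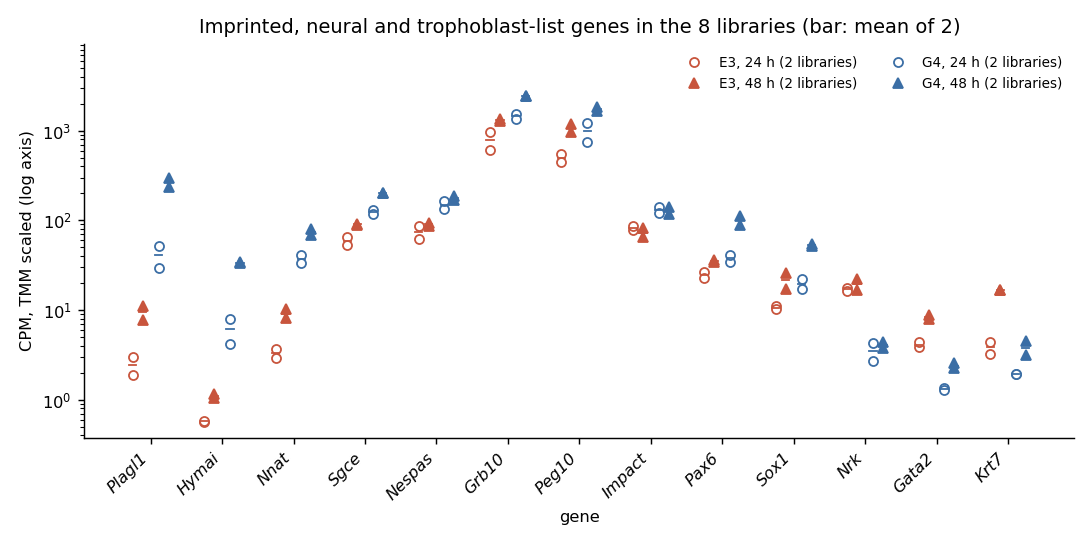
CPM (TMM scaled, log axis) of 13 genes in each of the 8 libraries; open circles are 24 h, filled triangles 48 h, red E3, blue G4, and bars the mean of 2 libraries. The 8 imprinted-locus genes from Plagl1 to Impact are lower in E3 at each time, with the widest gaps for Plagl1, Hymai and Nnat, and Nrk, Gata2 and Krt7 are higher.

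Some neural factors were lower in E3. Of 17 tested genes of the neural progenitor list, 2 were called lower and 0 higher, 13 were below 0, and the median was -0.58. Pax6, a homeobox factor of neural tube and eye, was at 26.7 and 22.7 and then 34.0 and 36.3 in E3. In G4 it was at 34.7 and 40.6 and then 88.8 and 113. All E3 libraries lay below those of G4 at the same time, and the difference was -1.08 ± 0.18 (adjusted p = 0.0135, edgeR). Sox1, which marks neuroectoderm, was at 11 and 10.2 and then 25.8 and 17.0 in E3, against 22.4 and 17.0 and then 51.1 and 55.0 in G4 (-1.12 ± 0.17, adjusted p = 0.00955, edgeR). The related factors Sox3 (-1.21 ± 0.24, adjusted p = 0.0295) and Zic2 (-0.83 ± 0.18, adjusted p = 0.0459, edgeR), listed under formative and primed pluripotency, were also lower. Zic1 stood at -1.07 (adjusted p = 0.0923), and the intermediate filament gene Nes at 0.24 (adjusted p = 0.912), with 315 CPM in the first E3 library of 48 h against 121 in the second. Without the first G4 library of 48 h, 0 members of the neural progenitor list were called.

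Several of the largest falls were of genes outside the lists above. The largest falls and rises were picked among called genes whose libraries did not overlap between the clones, so that trait follows from the choice. Ntrk2, the receptor of brain-derived neurotrophic factor, was at 33.7 and 30.3 and then 17.7 and 22.3 in E3, against 54.2 and 67.7 and then 43.9 and 45.6 in G4. The difference was -1.04 ± 0.14 (adjusted p = 0.00541, edgeR), with no overlap. Sema5b, a guidance molecule of axons, was at 35.7 and 33.9 and then 25.6 and 27.3 in E3 and at 57.7 and 74.9 and then 51.1 and 66.9 in G4 (-1.04 ± 0.14, adjusted p = 0.00566, edgeR). The protocadherin gene Pcdh17 (-1.05 ± 0.20), the secreted neurotrophic factor gene Ndnf (-1.08 ± 0.18), Skida1 (-1.14 ± 0.23) and Plcxd3 (-1.53 ± 0.28) were lower without overlap, at adjusted p of 0.0212, 0.0121, 0.0295 and 0.0186 (edgeR). Of 17 tested genes of later neurons, 0 were called, with a median of 0.12. The clustered protocadherins had 0 calls among 15, with a median of -0.09.

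The largest rise was that of Nrk, which is on none of the lists. Nrk (chrX:138914430-139009090), a kinase known for its role in placenta, was at 17.7 and 16.4 and then 16.9 and 22.1 in E3, against 4.30 and 2.72 and then 4.37 and 3.77 in G4. The difference was 2.26 ± 0.19 (adjusted p = 7.25e-05, edgeR), with 2.27 at 24 h and 2.25 at 48 h. Gata2, a zinc finger factor of trophoblast and blood, was at 3.86 and 4.39 and then 7.88 and 8.81 in E3 and at 1.34 and 1.28 and then 2.24 and 2.56 in G4 (1.75 ± 0.22, adjusted p = 0.00478, edgeR). The keratin gene Krt7 was at 4.43 and 3.22 and then 16.6 and 16.6 in E3, against 1.93 and 1.92 and then 4.47 and 3.16 in G4 (1.70 ± 0.26, adjusted p = 0.00955, edgeR). E3 was above G4 at each time, while the 24 h libraries of E3 overlapped the 48 h libraries of G4. Gata2 and Krt7 were the 2 calls among 10 tested trophoblast genes, 9 of which were above 0, with a median of 1.05. Krt8, the keratin of simple epithelia, stood at 1.37 (adjusted p = 0.0593), Krt18, its partner, at 1.11 (adjusted p = 0.134) and Cdx2 at 1.00 (adjusted p = 0.189). The trophoblast calls ranged from 1 to 5 as single libraries were left out, with the lowest count without the first G4 library of 48 h and the highest without the first G4 library of 24 h. Over the 7 marker genes listed for trophoblast, the summed level was 37.0 to 52.8 in E3 and 22.4 to 46.1 in G4 at 24 h, and 35.2 to 35.8 against 25.3 to 26.7 at 48 h.

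Further large rises had no list in common. Gpat3, an enzyme of glycerolipid synthesis, was at 9.86 and 9.65 and then 9.68 and 13.7 in E3, against 5.04 and 3.68 and then 3.498 and 2.41 in G4 (1.56 ± 0.24, adjusted p = 0.00955, edgeR). Tinagl1, a matrix protein, was at 20.6 and 26.2 and then 32.8 and 31.2 in E3, against 15.4 and 6.72 and then 9.72 and 7.53 in G4. Its difference was 1.48 ± 0.24 (adjusted p = 0.0121, edgeR). Stmn4, a tubulin binding protein (1.48 ± 0.26), Slco2a1, a prostaglandin transporter (1.39 ± 0.30), Slc5a5, the iodide transporter (1.30 ± 0.25), and Cd74, the invariant chain of antigen presentation (1.23 ± 0.28), were higher with no overlap, at adjusted p of 0.0181, 0.0443, 0.0249 and 0.0499 (edgeR). Lrrc15, Cxcl16, Sfmbt2, Rnf128, Vgll3 and Stard8 followed, at 1.02 to 1.10. Sfmbt2, a Polycomb-related gene that is imprinted in extra-embryonic tissue and was not on the imprinted list, was at 388 and 258 and then 207 and 368 in E3, against 179 and 164 and then 130 and 119 in G4. The microRNA gene Mir297a-3 (1.03) has its deposited span inside that of Sfmbt2 and shares its reads.

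Ligands of the Wnt pathway, which acts in patterning and stem cell renewal, gave the calls of that list. Of 28 tested members, 2 were higher and 0 lower, with a median of -0.05. Wnt3, which also stands on the primitive streak list, was at 12.9 and 11.99 and then 9.85 and 9.52 in E3, against 8.31 and 5.76 and then 4.08 and 2.41 in G4. The difference was 1.15 ± 0.23 (adjusted p = 0.0267, edgeR), and that of Wnt7b was 1.17 ± 0.24 (adjusted p = 0.0320, edgeR). The target gene Axin2 stood at -0.13 (adjusted p = 0.890). Of 18 tested p53 targets, 2 were higher, Perp (1.01 ± 0.22, adjusted p = 0.0428), an epithelial membrane protein, and Trp53inp1 (0.57 ± 0.12, adjusted p = 0.0445, edgeR), and all 18 were above 0 with a median of 0.36; Cdkn1a, the cell cycle inhibitor, stood at 0.41 (adjusted p = 0.598). Single calls in other lists were Dusp6, a phosphatase that is induced by and limits ERK signalling (-0.72 ± 0.14, adjusted p = 0.0257), Ccnd2, cyclin D2 (-0.90 ± 0.17, adjusted p = 0.0206), and the glycolytic enzyme gene Aldoa (-0.69 ± 0.14, adjusted p = 0.0307, edgeR), which lies in the chromosome 7 block below.

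Naive and general pluripotency genes had no calls, while Sox3 and Zic2 of the formative and primed list were lower, as given above. Of 16 tested naive and 15 general pluripotency genes, 0 were called, with medians of 0.09 and -0.02. Extra-embryonic endoderm genes had 0 calls of 22 (median 0.17). Genes of fibroblasts and stroma had 0 calls of 18 with a median of 0.53 and the collagen values of the first E3 library of 48 h among them. The 16 cohesin and CTCF genes had 0 calls and a median of 0.02, and the 25 Polycomb and DNA methylation genes 0 calls and a median of -0.09.

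Y-linked genes were lower in E3. Of 6 tested on chromosome Y, 3 were called lower. The histone demethylase gene Uty was at 30.0 and 27.1 and then 18.7 and 33.2 in E3, against 73.7 and 95.2 and then 84.5 and 82.4 in G4 (-1.62 ± 0.17, adjusted p = 0.000493, edgeR), without overlap. The RNA helicase gene Ddx3y (-1.12 ± 0.18, adjusted p = 0.0113) and the zinc finger gene Zfy1 (-1.44 ± 0.27, adjusted p = 0.0215, edgeR) did the same. The second deletion clone differed from both: Uty was at 510 and 410 at 24 h and at 524 and 395 at 48 h in H12, and E3 was below H12 by -4.11 ± 0.15 (adjusted p = 1.97e-19, edgeR, 42 libraries). Zfy1 was named after its values were seen.

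Beyond single genes, 2 blocks of neighbouring genes were lower in E3. Along each chromosome, medians were taken over windows of 25 neighbouring tested genes, and runs of windows with a median past 0.5 on either side of 0 were kept. The first block, chr7:122159437-128461513, spans 6.30 Mb and 107 tested genes: 99 were below 0, 27 were called lower and 0 higher, and the median was -0.60. The second, chr11:58867240-62604806, spans 3.74 Mb and 74 tested genes: 70 were below 0, 25 were called lower and 0 higher, and the median was -0.51. Together the blocks hold 52 of the 134 lower genes (38.8%) and 0 of the 51 higher ones. Outside them, 82 genes were lower among 14307. The blocks were chosen on these same fold changes, so their low medians and their shares of lower genes follow in part from the rule. The members share no pathway list; they include the chromatin remodeller gene Srcap (-0.84 ± 0.12), the H3K4 methyltransferase gene Setd1a (-0.76 ± 0.12), the zinc finger genes Maz (-0.76 ± 0.11) and Zfp646 (-0.73 ± 0.12) and the kinase gene Taok2 (-0.72 ± 0.11) on chromosome 7. On chromosome 11 they include the aldehyde dehydrogenase gene Aldh3a2 (-0.82 ± 0.11), Zkscan17 (-0.88 ± 0.13), the retinoic acid induced gene Rai1 (-0.82 ± 0.13), the autophagy kinase gene Ulk2 (-0.89 ± 0.14) and the GTPase gene Drg2 (-0.74 ± 0.12), with Hist3h2ba (-0.95 ± 0.17) and Kcnj12 (-0.92 ± 0.19) among the largest falls. All of these had an adjusted p under 0.05 (edgeR).

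The 297 tested genes of chromosome 11 that lie before the block also leaned down, with a median of -0.25, 267 below 0 and 11 called lower. Grb10 and Glra1 were among these 11. Among the 799 after the block, which include the Hoxb cluster, 400 were below 0 and the median was -0.0003. On chromosome 7 the medians before and after the block were -0.01 (886 genes) and 0.05 (141 genes). The block medians of the single E3 libraries, as log2 ratios to the G4 mean of the same time, ran from -0.78 to -0.37 at 24 h and 48 h on chromosome 7 and from -0.64 to -0.51 on chromosome 11. They were also low before differentiation: -0.60 and -0.48 on chromosome 7 and -0.48 and -0.52 on chromosome 11 at 0 h. H12 showed the same blocks, at -0.51 and -0.58 on chromosome 7 and -0.37 and -0.38 on chromosome 11 at 0 h. Between E3 and H12 at 24 h and 48 h, the median difference was 0.08 over the chromosome 7 block, with 14 genes higher in E3 and 9 lower of 107. Over the chromosome 11 block it was 0.002, with 8 higher and 12 lower of 74, where 24.8% of all genes differed between these clones. Since both deletion clones were set against the same G4 libraries, a difference that they share may lie in G4 or in them, and these cannot be told apart. The block medians changed little without the first G4 library of 48 h (-0.62 on chromosome 7 and -0.50 on chromosome 11) or the second (-0.60 and -0.53). Without the first G4 library of 48 h, 0 genes of either block were called, and without the second 7 on chromosome 7 and 5 on chromosome 11.

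**Figure D4:**
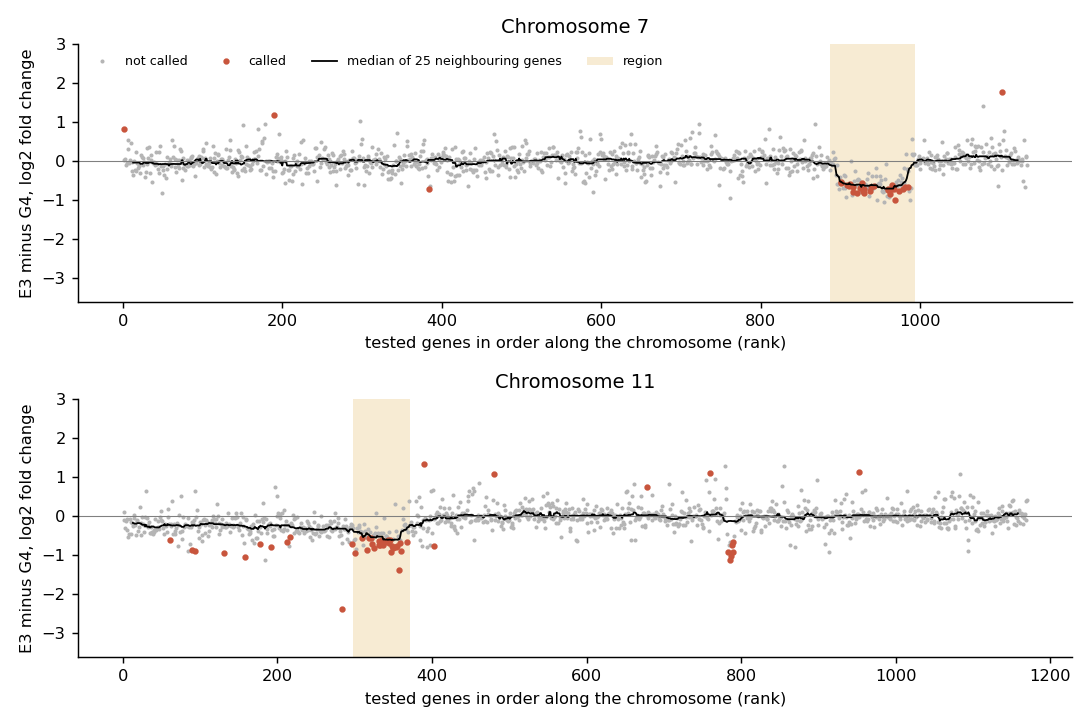
Log2 fold change of E3 against G4 at 24 h and 48 h for the tested genes of chromosomes 7 and 11 in their order; red points passed an adjusted p of 0.05, the black line is the median of 25 neighbouring genes and the shaded bands are the 2 blocks. The line drops to -0.71 on chromosome 7 and -0.61 on chromosome 11 within the bands, and the separate cluster of red points toward the right of chromosome 11 is the Hoxb cluster.

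Each time was also tested alone, in a fit with a mean per group. At 24 h 4 genes were called (0.0271%) and at 48 h 64 (0.433%), 26 higher and 38 lower. A lower count at 24 h does not show a smaller difference: the test of the difference between the times found 0 of 14764 genes (edgeR), with 380 genes at an unadjusted p under 0.05 (2.57%) and a lowest adjusted p of 0.9998, and DESeq2 also found 0. Without the second E3 library of 48 h the 48 h count was 608 and the count of genes that differed between the times was 5. Without the first and second G4 libraries of 48 h the 48 h count was 7 and 5, and without the first and second E3 libraries of 24 h it was 12 and 15. At 24 h the count was 18 without either E3 library of 48 h, 2 without the first E3 or the first G4 library of 24 h and 1 without the second E3 library of 24 h. Glra1, a glycine receptor subunit, had the lowest p among the genes of this test. It was at 9.57 and 11.8 in E3 and 36.3 and 29.3 in G4 at 24 h, and at 0.821 and 0.705 against 17.6 and 10.8 at 48 h. Its difference went from -1.62 to -4.22, a change of -2.61 ± 0.50 that did not pass. Next came Ptk2b (a change of 1.84), Igf1 (-2.10), Svop (1.46), Megf11 (1.24), Unc5b (1.06), Srgap3 (-0.96) and Nrcam (-0.98), all at an adjusted p of 0.9998 (edgeR).

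Against the second deletion clone, 24.8% of 15923 genes differed at 24 h and 48 h in a fit of all 42 clone libraries, 12% higher in E3 and 12.8% lower, so shares are read against these. This comparison uses the same E3 libraries as that with G4, so the 2 are given side by side. Of 9 Hoxb genes, 8 were lower in E3 than in H12, with a median of -0.86. Hoxb8 was lower than in H12 by -1.30 ± 0.20 (adjusted p = 1.82e-05), Hoxb9 by -1.03 ± 0.16 (adjusted p = 3.07e-05), Hoxb5 by -0.96 ± 0.22 (adjusted p = 0.00154) and Hoxb3 by -0.67 ± 0.13 (adjusted p = 0.000428, edgeR), and Hoxb1 was not called (-0.45 ± 0.22, adjusted p = 0.137). In H12, Hoxb3 was at 50.9 and 54.2 at 24 h and 100 and 136 at 48 h, and Hoxb8 at 16.0 and 19.6 and then 26.0 and 38.3. In the same fit, H12 minus G4 was -0.26 for Hoxb3, -0.07 for Hoxb5 and 0.37 for Hoxb8, none of them called, and 0.57 for Hoxb9, which was higher in H12 (adjusted p = 0.00910, edgeR). E3 and H12 carry the same genotype in the labels, and these Hoxb values differ between them.

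Several other groups separated E3 from H12 as well. Of 9 Hoxa genes in that fit, 8 were lower in E3 than in H12, and Hoxa3 differed by -1.08 ± 0.16 (adjusted p = 8.31e-06, edgeR). Of 11 trophoblast genes, 8 were higher in E3; Krt7 differed by 2.23 ± 0.28, Gata2 by 1.53 ± 0.26 and Nrk by 1.69 ± 0.19, all past the test. The neural progenitor list went both ways: of 22 genes in that fit, 3 were higher and 1 was lower in E3 than in H12, with a median of 0.35. Against G4, 10 of these 22 were lower in H12 and 0 higher, with a median of -0.95, while 3 were lower in E3 in the same fit, with a median of -0.55; both use the same G4 libraries. Sox1 was the lower gene against H12 (-0.87 ± 0.21, adjusted p = 0.00297), and Pax6 was not called (-0.19 ± 0.19, adjusted p = 0.486, edgeR). Plagl1 and Nnat were low in both clones and lower in E3: Plagl1 was at 4.29 and 5.23 and then 43.6 and 37.2 in H12, above E3 by a log2 difference that puts E3 at -1.54 ± 0.25 (adjusted p = 4.29e-05), and Nnat stood at -1.07 ± 0.26 (adjusted p = 0.00290, edgeR). Sgce (-0.19, adjusted p = 0.241), Nespas (-0.27, adjusted p = 0.185) and Grb10 (0.18, adjusted p = 0.251) did not separate the deletion clones. Without the first E3 library of 48 h the count of genes that differ between E3 and H12 was 2167 in place of 3948, and without the first H12 library of 24 h it was 2459.

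The same fit places these differences in the whole time course, with earlier and later libraries of the same clones. Of the 134 lower genes, 100 were also lower in E3 at 0 h to 6 h (5.85% of all genes were). At 74 h 93 were lower (2.95% of all genes were), and 0 were higher at either time. The 52 genes in the 2 blocks gave 51 of the 100 and 45 of the 93. The 82 genes outside the blocks gave 49 and 48. Of the 51 higher genes, 21 were higher at 0 h to 6 h (4.69% of all genes) and 26 at 74 h (1.41%), again with 0 in the other direction. Plagl1 stood at -3.48 at 0 h to 6 h and at -4.26 at 74 h, Nnat at -3.77 and -2.90, and Sgce at -1.20 and -1.11. Of the 9 Hoxb genes 0 were called at 0 h to 6 h, where their median was -0.54. In the same fit it was -0.75 at 24 h and 48 h. The genes whose difference changed between these times, given below, included no Hoxb gene. Hoxb3 stood at -0.78 ± 0.26 at 4 h (adjusted p = 0.238) and at -0.02 ± 0.24 at 6 h (adjusted p = 0.989), then at -0.93 ± 0.19 at 24 h (adjusted p = 0.0165, edgeR, 42 libraries). At 74 h 3 of 9 Hoxb genes were lower, and Hoxb3 stood at -1.13 (adjusted p = 0.000157).

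The difference between the clones at 24 h and 48 h itself differed from that at 0 h to 6 h for 18 genes (0.113%), 9 in each direction (edgeR, 42 libraries). Gata2 went from 0.09 to 1.72, a change of 1.63 ± 0.34, and Slc5a5 from -0.41 to 1.30, a change of 1.71 ± 0.35 (both adjusted p = 0.0387). Igf2 went from -0.52 to 0.76 (change 1.27 ± 0.19, adjusted p = 0.00412), and the mesenchymal filament gene Vim from -1.22 to -0.39. In the other direction, Rfx4, a neural tube factor, went from 0.03 to -1.17 (change -1.20 ± 0.25, adjusted p = 0.0395), and the neural splicing factor gene Srrm4 from 0.49 to -0.84. This count was 105 without the second E3 library of 48 h, 58 without the first E3 library of 24 h and 1 to 3 without the second E3 library of 24 h, the first E3 library of 48 h, the second G4 library of 24 h or either G4 library of 48 h.

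**Figure D5:**
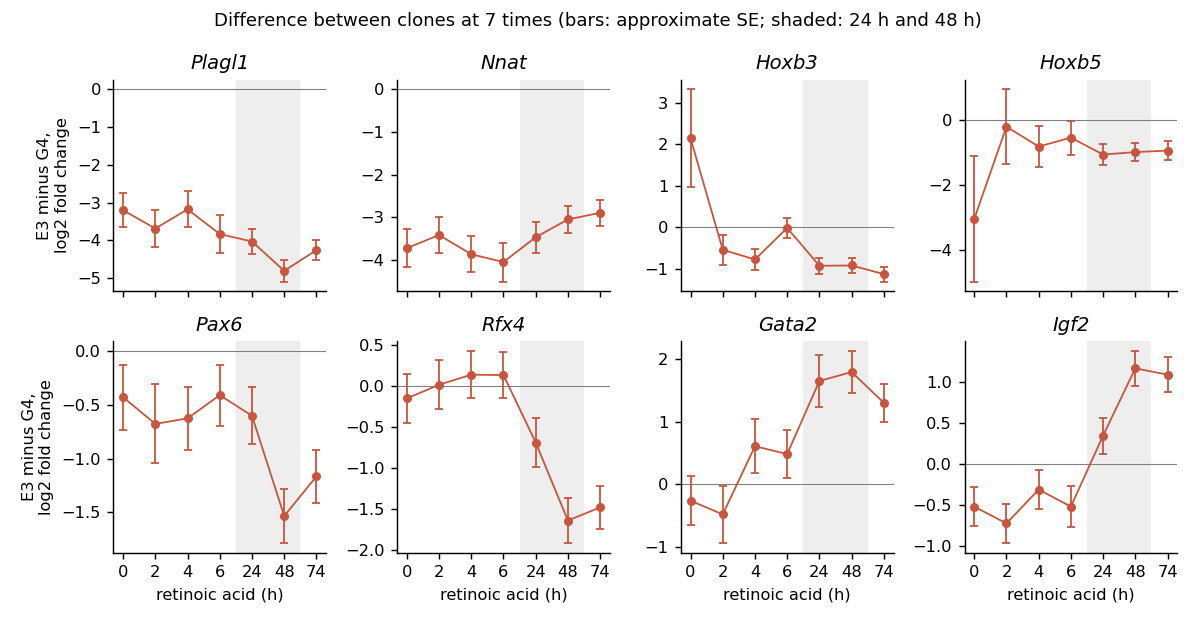
E3 minus G4, log2 fold change with approximate SE, at the 7 times of retinoic acid (equally spaced on the axis, in hours) for 8 genes, from the fit of all 42 clone libraries; 24 h and 48 h are shaded. Plagl1 and Nnat are below 0 at all 7 times, Rfx4 leaves 0 after 6 h, and Gata2 and Igf2 are above 0 at 24 h, 48 h and 74 h; the wide bars of Hoxb3 and Hoxb5 at 0 h go with few reads.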

How the data were processed

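Nuclear RNA of clones E3 and G4 was measured by RNA sequencing after 24 h and 48 h of retinoic acid, in 2 libraries per clone and time. Per the labels' protocols, ribosomal RNA was depleted, libraries were directional and read in pairs, and Drosophila cells were added for calibration. The tools named per the submitters' processing notes are DESeq2, STAR, SAMtools and Bowtie2, and the builds mm10 and dm6; versions and parameters are not given in the sources used here. The deposited signal of each transcript is a read count divided by a size factor per library, and whole reads were recovered in all 42 clone libraries (100% of values within 0.1 read of a whole number). For 3 columns the size factor is near 1, and an automatic check of units could not tell their steps from whole signals. Their reads were recovered in the same way. The first G4 library of 24 h, with a size factor of 1.0014, is among these 3. Transcripts with the same span had equal reads in 3729 of 3729 sets, so reads cover introns too; whether strand was used is not stated.

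The transcript with the highest mean share of reads was kept for each of 19482 genes. Reads were tested with edgeR 4.0.16 in R 4.3.3 (TMM, filterByExpr, robust quasi-likelihood test, time as a block; 14488 genes with 99.824% of reads). Fits with a mean per group, of the 8 libraries or of all 42 clone libraries, gave single times, E3 against H12 and changes over time. Levels are CPM, that is counts scaled to TMM library size. The approximate SE was derived from edgeR's F statistic, as the size of the log2 fold change over the root of F. In simulated counts for E3 against G4 at 24 h and 48 h, 89.9% of 99 genes changed 2-fold and 100% of 99 changed 4-fold were recovered, with 12 false calls among 14362 genes. The simulation gave all libraries the same spread at a given level and changed only genes above a floor on mean CPM. The real groups were unequal, with a chi-square per gene of 32.9 for E3 and 6.02 for G4 at 48 h. These rates therefore check the code and do not give the power or error of the real comparison.

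Named genes were the 15 largest rises and falls among calls with at least 5 CPM and no overlap between the clones (symbols starting in Gm or ending in Rik left out), every tested Hoxb gene, up to 4 called genes per list by adjusted p, the 8 lowest p of the clone by time test and up to 5 genes per block. Others were named as list members or after their values were seen. The members, 33 lists and rules were chosen with earlier results of these data known. Replicate numbers were not used to pair the libraries of the clones in the main fit (see the closing section). DESeq2 1.42.0, limma 3.58.1 and other settings served as alternatives.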

Additional observations from a re-analysis of the deposited data

Results flagged for a closer look

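The difference between E3 and G4 at 24 h and 48 h was set against that at 0 h to 6 h by a test of the change itself, and 18 genes passed (edgeR, all 42 clone libraries, adjusted p under 0.05). These genes were named after their values were seen. The change, on the log2 scale, was upward for Slc5a5 (1.71), Gata2 (1.63), Fstl3 (1.43), Igf2 (1.27), Csf1 (1.21), Axl (1.17), Col5a2 (1.17), Plaur (0.964) and Vim (0.833). Among these, Fstl3 encodes a secreted activin inhibitor, Csf1 a growth factor of macrophages, Axl a receptor kinase, Col5a2 a fibrillar collagen and Plaur the urokinase receptor. It was downward for Srrm4 (-1.32), Rfx4 (-1.2), Car10 (-1.19), Rnf152 (-1.16), Miat (-1.16), Ptprn2 (-1.1), Srgap3 (-0.979), Tshz3 (-0.845) and Spsb4 (-0.827). Col5a2 was at 100.5 CPM in the first E3 library of 48 h and 45.1 in the second, against 26.9 and 31.0 in G4. The first E3 library of 48 h also held the highest summed fibroblast markers, through the collagen genes among them. That library's part in the result was not tested gene by gene. Igf2 was at 652 and 488 in the 2 E3 libraries of 48 h against 268 and 232 in G4.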

How the results depend on the processing

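The scaling by the authors' size factors and the longest transcript per gene gave the same 185 calls, and DESeq2 shared 182 of them. Counts of genes higher and lower in E3 were 124 and 214 with DESeq2 and 153 and 316 with all 42 libraries (61 at least 2-fold higher). DESeq2, all 42 libraries and no filter on low counts gave 26, 68 and 8 genes at 24 h and 192, 343 and 137 at 48 h, and DESeq2 gave 62 genes that differ from 0 h to 6 h. Windows of 15 genes gave 7 blocks in place of 2.

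The replicate number was also used as a block. Deviations of libraries with the same number correlated at -0.0716 at 24 h and 0.15 at 48 h between the clones. These values do not decide whether libraries of the same number were prepared together, and the labels do not say. With this replicate block, 101 genes were higher and 182 lower (55 at least 2-fold higher), 7 differed at 24 h, 161 at 48 h and 97 between late and early. With the block of time by number, 129 were higher (59 at least 2-fold) and 223 lower.

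Leaving out each library in turn gave 5 to 122 higher genes (4 to 66 at least 2-fold) and 9 to 228 lower (9 to 45 at least 2-fold), 1 to 18 genes at 24 h, 5 to 608 at 48 h, 0 to 5 for the change between these times, 2167 to 5482 against H12 and 1 to 105 for late against early. A lone library of a group is then assumed to vary like the others. Of 65 named genes under 16 alternatives, 852 values kept their call and 188 did not pass; none changed sign. With 2 libraries a group and 6123314 to 10450047 reads, genes of a few CPM, such as Hoxb7, are the least certain.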
